A study of Mus musculus with 19 samples.

Results

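The 10 genes described here, of neutrophils and myeloid suppressor cells, were measured in implanted 4T1 mouse mammary tumours. They were S100a8, S100a9, Clec4d, Clec4e, Trem1, Csf3r, Cxcr2, Retnlg, Ly6g and Mmp9. The genes were chosen by gene symbol from the 46983 genes of the count table, with earlier results of these data known. All 10 were among the 16763 genes that passed the filter on low counts. Bulk RNA was sequenced from LDHA-KD tumours under anti-CTLA-4 (n = 5) or control IgG (n = 5) and from control tumours under anti-CTLA-4 (n = 5) or IgG (n = 4). LDHA-KD marks a knockdown of lactate dehydrogenase A, the enzyme that turns pyruvate into lactate, and anti-CTLA-4 is an antibody that blocks an inhibitory receptor of T cells. Every mouse was of the BALB/cAnN strain, was implanted with 1000000 tumour cells and was given 3 treatments 3 days apart, starting on day 3. The sources used here give neither age nor sex of the mice. The LDHA-KD tumours came from a line labelled 4T1-KD and the control tumours from a line labelled 4T1-Sc. Each is a single named line, with no word on whether it is a clone or a pool, so the knockdown cannot be told apart from any other difference between these lines. No label says that replicates came from separate animals, so the p-values reflect only the scatter among these samples, which may in part be technical.

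Neutrophils are short-lived granulocytes that leave the bone marrow under the growth factor G-CSF and chemokines of the CXC family. In tumours, immature or activated neutrophils that restrain T cells are called granulocytic myeloid-derived suppressor cells, and 4T1 is known for expanding such cells in its host through tumour-made G-CSF. The genes described here cover calcium-binding alarm proteins, surface receptors that sense damage or microbes, receptors for growth factor and chemokine, secreted and surface markers, and a matrix-degrading protease.

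Gene counts per library, in units of 1000000, ran from 31.8 to 43.3. Ldha, the targeted gene, lay between 452 and 584 CPM (counts scaled to a library total of 1000000) in the 10 LDHA-KD tumours and between 1283 and 2244 CPM in the 9 control tumours. Its log2 fold change was -1.82 under anti-CTLA-4 (SE 0.11, adjusted p = 6.227e-10, edgeR) and -1.72 under IgG (SE 0.11, adjusted p = 2.457e-09, edgeR). On the second principal component of all tested genes, which held 17.0% of the variance, 4 libraries scored above the others of their tumour type. They were replicates 3 and 5 of each anti-CTLA-4 group, with scores of 48.6 and 43.1 in LDHA-KD and 32.1 and 31.6 in control tumours. For many results, values without these 4 libraries are given as well. Pan-leukocyte marker levels (Ptprc, Coro1a, Laptm5 and Cd53, 4 genes) summed to 793 to 1059 CPM in LDHA-KD anti-CTLA-4 tumours, 763 to 867 CPM in LDHA-KD IgG tumours, 507 to 595 CPM in control anti-CTLA-4 tumours and 419 to 556 CPM in control IgG tumours, so both LDHA-KD groups lay above both control groups. In bulk tissue, fewer cells of a type and less RNA per cell cannot be told apart, and this holds for every level given here.

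The stretches just upstream of 4 of the genes are printed because these genes form 2 neighbouring pairs whose levels varied together. S100a8 (chr3:90668978-90670035, plus strand) and S100a9 (chr3:90692632-90695721, minus strand) lie 22596 bases apart on GRCm38, per GENCODE M21. Clec4d (chr6:123262111-123275265, plus strand) and Clec4e (chr6:123281789-123289870, minus strand) lie 6523 bases apart and face each other. The windows come from RefSeq on GRCm38.p6, run 5′ to 3′ on the strand of the gene, and hold up to 250 bases before the start, with the S100a8 window ending where the GENCODE transcript starts. They span chr3:90668821-90668977 (S100a8), chr3:90695722-90695971 (S100a9), chr6:123261857-123262106 (Clec4d) and chr6:123289872-123290121 (Clec4e). Capitals mark matches to TTGCNNAA, a C/EBP type motif, or GAGGAAG, a PU.1 type motif, on either strand.
S100a8: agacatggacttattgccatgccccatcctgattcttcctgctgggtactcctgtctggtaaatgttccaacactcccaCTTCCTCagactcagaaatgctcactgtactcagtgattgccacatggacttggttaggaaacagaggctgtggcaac
S100a9: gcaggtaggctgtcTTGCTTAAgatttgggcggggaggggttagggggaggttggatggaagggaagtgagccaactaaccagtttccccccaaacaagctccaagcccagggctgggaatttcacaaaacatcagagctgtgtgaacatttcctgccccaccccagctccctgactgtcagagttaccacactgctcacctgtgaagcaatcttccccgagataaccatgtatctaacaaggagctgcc
Clec4d: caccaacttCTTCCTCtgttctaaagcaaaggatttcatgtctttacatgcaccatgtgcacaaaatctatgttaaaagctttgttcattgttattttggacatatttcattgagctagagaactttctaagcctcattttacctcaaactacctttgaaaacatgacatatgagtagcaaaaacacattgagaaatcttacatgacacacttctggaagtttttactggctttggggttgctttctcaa
Clec4e: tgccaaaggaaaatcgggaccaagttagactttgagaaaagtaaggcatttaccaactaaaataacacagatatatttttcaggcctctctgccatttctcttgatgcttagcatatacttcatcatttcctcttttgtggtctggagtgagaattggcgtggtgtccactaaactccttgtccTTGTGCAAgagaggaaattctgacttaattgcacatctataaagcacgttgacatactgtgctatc

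C/EBP proteins and PU.1 are transcription factors of granulocyte development. Windows were found for 9 of the 10 genes, all but Mmp9. The C/EBP type letters occurred upstream of S100a9, Clec4e, Retnlg and Ly6g, and in 9.56% of all 32851 windows. The PU.1 type letters occurred upstream of S100a8, Clec4d, Csf3r and Ly6g, and in 10.6% of all windows. The search used the 250 bases before the RefSeq start, and the Csf3r match, 86 bases before that start, lies after the start of the GENCODE transcript. The STAT type letters TTCNNNGAA occurred upstream of Trem1, and in 7.02% of all windows. These matches describe letters in a window and do not show that a factor binds there.

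Levels between genes were compared per kilobase of exon. Over the 19 tumours the median level was 594 CPM per kb for S100a9, 282 for S100a8 and 112 for Mmp9. It was 20.5 CPM per kb for Retnlg, 16.8 for Clec4d and 12.2 for Csf3r. The 4 lowest medians were 7.47 CPM per kb for Cxcr2, 6.20 for Trem1, 4.59 for Clec4e and 0.493 for Ly6g. Within single tumours S100a9 was above S100a8, S100a8 above Mmp9, Csf3r above Cxcr2 and Clec4e above Ly6g in 19 of 19 samples. The order of Cxcr2 and Trem1 held in 14 of 19 tumours and that of Trem1 and Clec4e in 16, so these neighbours were not separated in every sample. Retnlg exceeded Clec4d in 18 tumours and Clec4d exceeded Csf3r in 17.

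**Figure D1:**
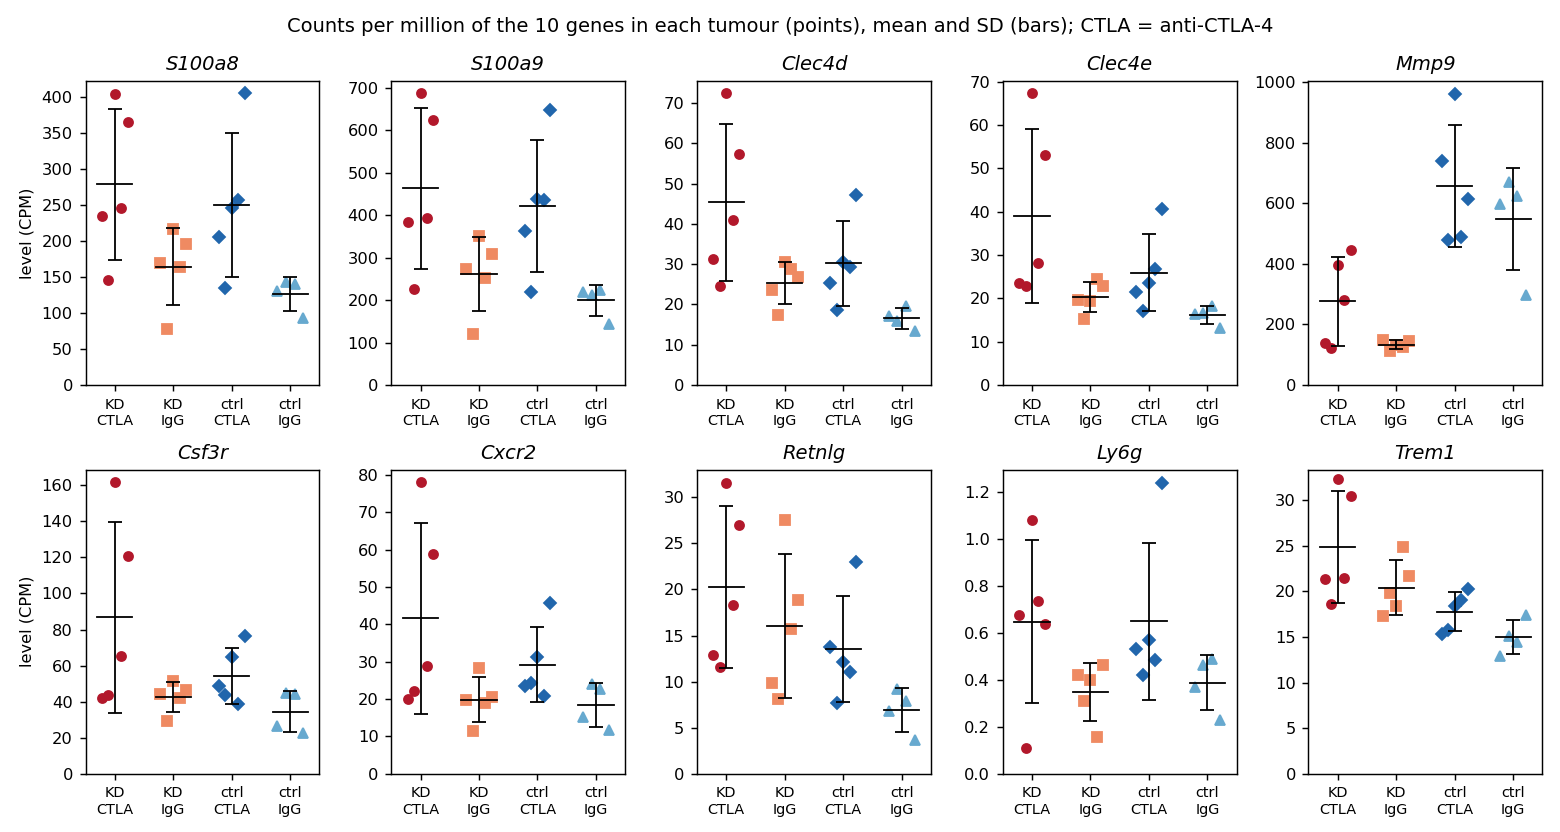
Level of each of the 10 genes in CPM in every tumour (points), with the group mean and SD (bars), for LDHA-KD (KD) and control (ctrl) tumours under anti-CTLA-4 (CTLA) or IgG. Mmp9 is the gene whose LDHA-KD tumours all lie below the control tumours of the same treatment, while for the other 9 genes the LDHA-KD and control points overlap.

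S100a8 and S100a9 encode the subunits of calprotectin, a calcium-binding protein that fills the neutrophil cytoplasm and, once released, is sensed by the receptors TLR4 and RAGE. S100a8 had levels of 234, 145, 404, 246 and 364 CPM in LDHA-KD anti-CTLA-4 tumours and of 169, 77.8, 216, 163 and 196 CPM in LDHA-KD IgG tumours. In control tumours it had 205, 135, 246, 257 and 405 CPM under anti-CTLA-4 and 130, 143, 139 and 92.3 CPM under IgG. Both anti-CTLA-4 groups reached higher than both IgG groups, with LDHA-KD replicates 3 and 5 and control replicate 5 the highest 3 of the 19. The groups overlapped in each of the 4 comparisons that follow. Group means of S100a9 were 463 ± 190 CPM in LDHA-KD anti-CTLA-4 tumours, 262 ± 87.2 CPM in LDHA-KD IgG tumours, 421 ± 155 CPM in control anti-CTLA-4 tumours and 199 ± 37.4 CPM in control IgG tumours (SD, n = 5, 5, 5 and 4). The ratio of S100a9 to S100a8 CPM was 1.63 ± 0.0794 over all 19 tumours (SD) and stayed between 1.49 and 1.79, while S100a8 itself varied 5.20-fold.

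S100a8 and S100a9 did not pass the test between LDHA-KD and control tumours. The S100a8 log2 fold change was 0.16 under anti-CTLA-4 (SE 0.29, adjusted p = 0.693, edgeR) and 0.38 under IgG (SE 0.31, adjusted p = 0.373, edgeR). S100a9 gave 0.14 (SE 0.30, adjusted p = 0.744) and 0.39 (SE 0.32, adjusted p = 0.375). For anti-CTLA-4 against IgG, the S100a8 log2 fold change was 0.76 in LDHA-KD tumours (SE 0.29, unadjusted p = 0.0177, adjusted p = 0.337, edgeR) and 0.98 in control tumours (SE 0.32, unadjusted p = 0.00574, adjusted p = 0.601, edgeR). S100a9 gave 0.82 (SE 0.30, adjusted p = 0.328) and 1.08 (SE 0.33, adjusted p = 0.601). Positive estimates were thus obtained in both tumour types, none past the adjusted threshold of 0.05. Keratinocytes also make both proteins under stress. The keratinocyte markers (9 genes, of which up to 5 were at 0 counts in a library) summed to 4.82 to 85.5 CPM in LDHA-KD anti-CTLA-4 tumours, 5.38 to 48.7 CPM in LDHA-KD IgG tumours, 14.9 to 24.5 CPM in control anti-CTLA-4 tumours and 10.2 to 57.3 CPM in control IgG tumours. Their part in the S100a8 and S100a9 levels was not tested.

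Clec4d and Clec4e encode C-type lectin receptors, known as MCL and Mincle, that bind microbial glycolipids and signal through the FcRγ chain, SYK and CARD9. Clec4d had 31.3, 24.5, 72.5, 40.8 and 57.4 CPM in LDHA-KD anti-CTLA-4 tumours, against 25.4, 18.7, 30.5, 29.3 and 47.1 CPM in control anti-CTLA-4 tumours. Under IgG it had 23.6, 17.4, 30.5, 28.8 and 26.8 CPM in LDHA-KD tumours, against 17.1, 15.9, 19.7 and 13.5 CPM in control tumours. The groups overlapped under anti-CTLA-4, and under IgG replicate 2 was the 1 LDHA-KD tumour within the control range. The log2 fold change for LDHA-KD was 0.59 under anti-CTLA-4 (SE 0.26, adjusted p = 0.0763, edgeR) and 0.62 under IgG (SE 0.28, adjusted p = 0.0947, edgeR), neither past the threshold. With the fit restricted to the IgG groups alone, the Clec4d value of 0.62 passed at an adjusted p of 0.0108 (edgeR). Clec4e averaged 39.0 ± 20.1 CPM in LDHA-KD anti-CTLA-4 tumours, 20.3 ± 3.55 CPM in LDHA-KD IgG tumours, 25.9 ± 8.93 CPM in control anti-CTLA-4 tumours and 16.1 ± 2.13 CPM in control IgG tumours (SD, n = 5, 5, 5 and 4). Its log2 fold change for LDHA-KD was 0.59 under anti-CTLA-4 (SE 0.27, adjusted p = 0.0881) and 0.34 under IgG (SE 0.29, adjusted p = 0.402). Without the 4 libraries that lay apart, the values under anti-CTLA-4 were 0.40 for Clec4d (adjusted p = 0.198, edgeR) and 0.19 for Clec4e (adjusted p = 0.464, edgeR).

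For anti-CTLA-4 against IgG, the Clec4d log2 fold change was 0.84 in LDHA-KD tumours (SE 0.26, adjusted p = 0.312, edgeR) and 0.87 in control tumours (SE 0.28, adjusted p = 0.601, edgeR). Clec4e gave 0.94 (SE 0.27, adjusted p = 0.295) and 0.68 (SE 0.29, adjusted p = 0.601). None of these passed, and without the 4 libraries the values in LDHA-KD tumours were 0.34 for Clec4d and 0.29 for Clec4e, and those in control tumours 0.56 and 0.44.

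Trem1 encodes a receptor of neutrophils and monocytes that amplifies inflammatory signals through the adaptor TYROBP, also called DAP12. It had 21.4, 18.6, 32.4, 21.4 and 30.5 CPM in LDHA-KD anti-CTLA-4 tumours, against 15.3, 15.8, 18.4, 19.1 and 20.3 CPM in control anti-CTLA-4 tumours. Under IgG the values were 17.3, 19.8, 18.4, 24.9 and 21.7 CPM in LDHA-KD tumours, against 12.9, 15.1, 14.5 and 17.4 CPM in control tumours. Only 1 LDHA-KD tumour in each treatment, replicate 2 under anti-CTLA-4 and replicate 1 under IgG, lay within the range of the control tumours. Trem1 was higher in LDHA-KD tumours under both treatments, with a log2 fold change of 0.48 under anti-CTLA-4 (SE 0.14, adjusted p = 0.0121, edgeR) and 0.44 under IgG (SE 0.16, adjusted p = 0.0326, edgeR). Without the 4 libraries that lay apart, the value under anti-CTLA-4 was 0.29 and no longer passed (adjusted p = 0.145, edgeR). The call under IgG was lost without LDHA-KD IgG replicate 4 (0.36, adjusted p = 0.0872) or 5 (0.42, adjusted p = 0.0648), or without control IgG replicate 1 (0.38, adjusted p = 0.0939) or 4 (0.43, adjusted p = 0.0685). The anti-CTLA-4 effect on Trem1 was 0.28 in LDHA-KD tumours (SE 0.14, adjusted p = 0.444, edgeR) and 0.24 in control tumours (SE 0.15, adjusted p = 0.681, edgeR), and without the 4 libraries 0.0045 and 0.16. Trem1 overlaps a pseudogene on the opposite strand in GENCODE M21, which has no row in the count table. The sources used here do not give the strand setting of the counting.

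Csf3r encodes the receptor for G-CSF, and Cxcr2 a receptor for CXC chemokines that guides neutrophils out of the marrow and into tissue. Csf3r had 41.9, 43.5, 162, 65.4 and 121 CPM in LDHA-KD anti-CTLA-4 tumours, against 44.0, 29.3, 51.5, 42.1 and 46.7 CPM in LDHA-KD IgG tumours. In control tumours it had 48.8, 43.6, 64.7, 38.5 and 76.2 CPM under anti-CTLA-4, against 26.4, 44.8, 44.1 and 22.7 CPM under IgG. LDHA-KD anti-CTLA-4 replicates 1 and 2 lay within the range of the LDHA-KD IgG tumours, and replicates 3 and 5 were the highest of all 19. Cxcr2 showed the same order within the LDHA-KD anti-CTLA-4 group, with 19.97, 22.3, 78.1, 28.7 and 58.9 CPM, against 19.8, 11.4, 28.4, 18.9 and 20.7 CPM in LDHA-KD IgG tumours. The ratio of Cxcr2 to Csf3r CPM was 0.5001 ± 0.0537 over the 19 tumours (SD).

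For LDHA-KD against control tumours, the Csf3r log2 fold change was 0.67 under anti-CTLA-4 (SE 0.32, adjusted p = 0.102, edgeR) and 0.31 under IgG (SE 0.35, adjusted p = 0.526, edgeR). Cxcr2 gave 0.51 (SE 0.34, adjusted p = 0.243) and 0.10 (SE 0.37, adjusted p = 0.857). Without the 4 libraries that lay apart, the values under anti-CTLA-4 were 0.205 for Csf3r and 0.0465 for Cxcr2. For anti-CTLA-4 against IgG in LDHA-KD tumours, Csf3r gave 1.02 (SE 0.32, unadjusted p = 0.00523, adjusted p = 0.312, edgeR) and Cxcr2 1.07 (SE 0.35, unadjusted p = 0.00599, adjusted p = 0.312, edgeR). These estimates were 0.24 and 0.26 without the 4 libraries. In control tumours Csf3r gave 0.65 (SE 0.35, adjusted p = 0.633, edgeR) and Cxcr2 0.66 (SE 0.37, adjusted p = 0.644, edgeR), and without the 4 libraries 0.34 and 0.31. The 2 libraries left out of the LDHA-KD anti-CTLA-4 group also had the largest shares of reads outside genes among the 19, at 13.8% and 12.1%, and the part of this in the result was not tested.

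Retnlg encodes resistin-like gamma, a small secreted protein and a marker of mature mouse neutrophils. Under IgG its level was 9.89, 8.08, 27.6, 15.7 and 18.8 CPM in LDHA-KD tumours, against 6.77, 9.23, 7.93 and 3.68 CPM in control tumours. LDHA-KD replicate 2 was the 1 tumour of its group within the control range. Retnlg was higher in LDHA-KD tumours under IgG, by 1.21 on the log2 scale (SE 0.39, adjusted p = 0.0208, edgeR). This call was lost without LDHA-KD IgG replicate 3 (0.93, adjusted p = 0.0686) or without control IgG replicate 5 (1.004, adjusted p = 0.0695). Under anti-CTLA-4 it had 12.8, 11.6, 31.6, 18.3 and 27.0 CPM in LDHA-KD tumours, against 13.8, 7.73, 12.1, 11.0 and 23.0 CPM in control tumours. There the groups overlapped more, and the log2 fold change was 0.59 (SE 0.35, adjusted p = 0.193, edgeR). The anti-CTLA-4 effect on Retnlg, on the log2 scale, was 0.34 in LDHA-KD tumours (SE 0.35, adjusted p = 0.708, edgeR) and 0.97 in control tumours (SE 0.39, adjusted p = 0.601, edgeR), and without the 4 libraries -0.17 and 0.65.

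Ly6g encodes a surface protein that defines mouse neutrophils in flow cytometry. It was scarcely detected in bulk RNA, with 4 to 43 counts per library, where a floor of 3 counts is 0.0698 to 0.0926 CPM. Means were 0.647 ± 0.348 CPM in LDHA-KD anti-CTLA-4 tumours, 0.349 ± 0.123 CPM in LDHA-KD IgG tumours, 0.648 ± 0.334 CPM in control anti-CTLA-4 tumours and 0.387 ± 0.118 CPM in control IgG tumours (SD, n = 5, 5, 5 and 4). No difference between LDHA-KD and control tumours was detected at these low counts. The log2 fold changes were 0.02 under anti-CTLA-4 (SE 0.40, adjusted p = 0.980, edgeR) and -0.15 under IgG (SE 0.47, adjusted p = 0.843, edgeR). Under anti-CTLA-4 against IgG, Ly6g gave 0.88 in LDHA-KD tumours (SE 0.42, adjusted p = 0.424, edgeR) and 0.72 in control tumours (SE 0.45, adjusted p = 0.674, edgeR), and without the 4 libraries 0.54 and 0.29. Ly6g belongs to a family of close relatives, and its counts are uncertain where reads could be shared among them.

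Mmp9 encodes gelatinase B, a protease stored in neutrophil granules and also made by macrophages, osteoclasts and many tumour cells. It had 139, 121, 396, 281 and 447 CPM in LDHA-KD anti-CTLA-4 tumours, against 740, 479, 961, 490 and 613 CPM in control anti-CTLA-4 tumours. Under IgG it had 148, 112, 133, 125 and 145 CPM in LDHA-KD tumours, against 599, 669, 625 and 298 CPM in control tumours. The LDHA-KD and control tumours did not overlap in either treatment, as was the case, in the lower direction, for 11.6% of all tested genes under anti-CTLA-4 and 15.2% under IgG. Mmp9 fell in LDHA-KD tumours, with a log2 fold change of -1.25 under anti-CTLA-4 (SE 0.31, adjusted p = 0.00352, edgeR) and -2.05 under IgG (SE 0.33, adjusted p = 9.605e-05, edgeR). Without the 4 libraries that lay apart the value under anti-CTLA-4 was -1.66 (adjusted p = 0.00114, edgeR).

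Within LDHA-KD tumours, anti-CTLA-4 replicates 3, 4 and 5 had more Mmp9 than every IgG tumour, while replicates 1 and 2 lay within the IgG range. The anti-CTLA-4 log2 fold change of Mmp9 was 1.06 in LDHA-KD tumours (SE 0.31, unadjusted p = 0.00276, adjusted p = 0.295, edgeR) and 0.26 in control tumours (SE 0.33, adjusted p = 0.839, edgeR). The difference between these effects was 0.80 (SE 0.45, 95% interval -0.13 to 1.73, adjusted p = 0.9998, edgeR) and did not pass. Osteoclast markers (5 genes, of which 1 was at 0 counts in some libraries) summed to 104 to 174 CPM, 101 to 144 CPM, 116 to 163 CPM and 93.2 to 129 CPM in LDHA-KD anti-CTLA-4, LDHA-KD IgG, control anti-CTLA-4 and control IgG tumours, ranges that overlapped in all 4 groups. Epithelial tumour cell markers (6 genes) summed to 2013 to 3246 CPM, 2976 to 3283 CPM, 3542 to 4338 CPM and 3520 to 4586 CPM in the same 4 groups. This sum was lower in all LDHA-KD tumours than in all control tumours. Of the 6 genes, 4 were called lower under anti-CTLA-4, beside 19.8% of all genes, with a list median of -0.45. Under IgG 2 were called lower, beside 17.5% of all genes, with a list median of -0.18. The sum is set mostly by its most abundant genes. The part of tumour cell content in the Mmp9 level was not tested.

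Mmp9 stood apart from the calprotectin genes in its relation to the tumour line. The ratio of Mmp9 to S100a8 CPM was 0.956 ± 0.253 in LDHA-KD anti-CTLA-4 tumours, 0.887 ± 0.322 in LDHA-KD IgG tumours, 2.90 ± 1.10 in control anti-CTLA-4 tumours and 4.25 ± 0.689 in control IgG tumours (SD, n = 5, 5, 5 and 4). The highest ratio in an LDHA-KD tumour was 1.44 and the lowest in a control tumour 1.51. Mmp9 made up 21.0%, 19.7%, 44.4% and 55.0% of the summed CPM of the 10 genes in these groups, given as means. The sum of the other 9 genes was 1000 ± 423 CPM in LDHA-KD anti-CTLA-4 tumours, 571 ± 167 CPM in LDHA-KD IgG tumours, 842 ± 301 CPM in control anti-CTLA-4 tumours and 433 ± 79.1 CPM in control IgG tumours (SD).

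**Figure D2:**
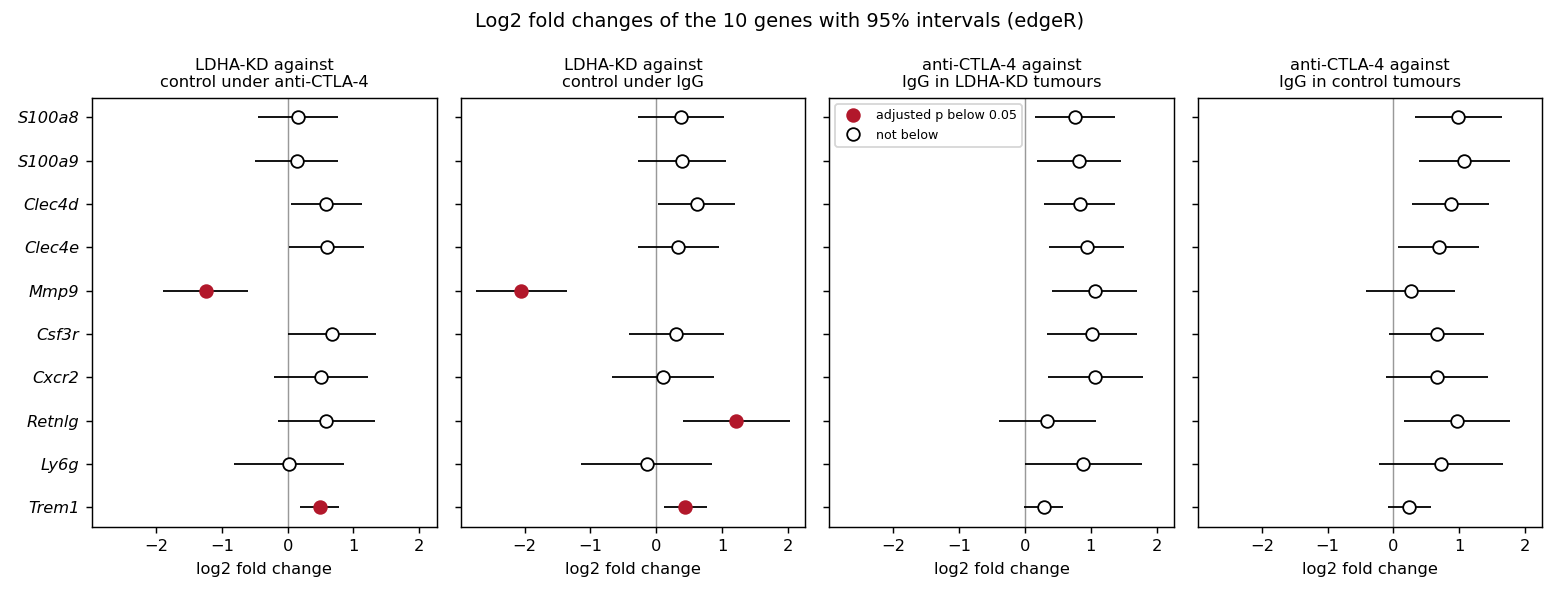
Log2 fold change of each gene with its 95% interval in 4 comparisons, with filled points where the adjusted p of edgeR's test was below 0.05. Mmp9 lies left of 0 in both LDHA-KD panels at -1.25 and -2.05, and all 10 points lie right of 0 in both anti-CTLA-4 panels with none filled.

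Across the 10 genes, LDHA-KD tumours under anti-CTLA-4 differed from control tumours in 2, Trem1 higher and Mmp9 lower, beside 40.0% of all genes tested. Under IgG they differed in 3, Retnlg and Trem1 higher and Mmp9 lower, beside 34.3% of all genes tested. These shares do not exceed the background. The median log2 fold change of the 10 genes was 0.50 under anti-CTLA-4 and 0.36 under IgG, beside 0.01 and -0.00 over all genes tested. The ratio of S100a8 to Ptprc CPM, where Ptprc is the leukocyte marker CD45, was 1.22 ± 0.376 in LDHA-KD and 2.18 ± 0.717 in control tumours under anti-CTLA-4 (SD, n = 5 each), and 0.786 ± 0.266 in LDHA-KD and 1.20 ± 0.360 in control tumours under IgG (SD, n = 5 and 4). These ratios overlapped between LDHA-KD and control tumours in both treatments and were not tested.

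For anti-CTLA-4 against IgG, 0 of the 10 genes passed edgeR's adjusted threshold in LDHA-KD or in control tumours, beside 0% of all genes tested in each. DESeq2 called 47 genes in LDHA-KD tumours and 12 in control tumours, none of them among the 10, and limma voom called 0 in each. In edgeR, 1987 genes (11.9%) had an unadjusted p below 0.05 in LDHA-KD tumours and 1346 (8.03%) in control tumours. At an unadjusted p below 0.05 in edgeR, 7 of the 10 were higher in LDHA-KD tumours (all but Retnlg, Ly6g and Trem1), beside 8.18% of all genes, and 5 were higher in control tumours (S100a8, S100a9, Clec4d, Clec4e and Retnlg), beside 4.69% of all genes. All 10 estimates were above 0 in both tumour types, beside 48.8% of all genes in LDHA-KD and 49.1% in control tumours. The 10 genes varied together, with a median r of 0.772 over their pairs, so these counts are not 10 separate results. They were also chosen with earlier results of these data known. The median over the 10 was 0.86 in LDHA-KD tumours and 0.70 in control tumours, beside -0.00 over all genes in each. For each of the 10, anti-CTLA-4 and IgG samples overlapped in both tumour types, where 0.817% of all genes in LDHA-KD and 0.555% in control tumours had no overlap with anti-CTLA-4 higher. With the 4 libraries that lay apart left out, the S100a8 estimate was 0.34 in LDHA-KD and 0.66 in control tumours, that of S100a9 0.35 and 0.77, and that of Mmp9 0.44 and 0.0581.

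The anti-CTLA-4 effect averaged over both tumour types was added after the data were seen. It ranged from 0.26 for Trem1 to 0.95 for S100a9 on the log2 scale, with adjusted p-values from 0.0863 to 0.203 (edgeR), so that 0 of the 10 passed, beside 0% of all genes tested. Leaving out the 4 libraries that lay apart, it ranged from 0.0806 for Trem1 to 0.56 for S100a9, with Csf3r at 0.29 and Cxcr2 at 0.28, and adjusted p-values ran from 0.952 to 0.971 (edgeR). In the edgeR fit of all 19 tumours, all 10 had an unadjusted p below 0.05, beside 10.6% of all genes in the higher direction and 18.1% in either direction. In that fit all 10 estimates were above 0, beside 48.9% of all genes. As the 10 genes varied together, these are not 10 separate results. DESeq2 called 5 of the 10, which were S100a8, S100a9, Clec4d, Clec4e and Csf3r, among 539 genes called of 16423 tested. In limma voom 0 genes were called. Without LDHA-KD anti-CTLA-4 replicate 2, edgeR called 7 of the 10, and the share of all genes called in that fit is not given here. The test of whether the anti-CTLA-4 effect differed between LDHA-KD and control tumours called 0 of the 10, beside 0% of all genes tested and 2.48% at an unadjusted p below 0.05. None of the 10 had an unadjusted p below 0.05 there, and the differences ran from -0.63 for Retnlg to 0.80 for Mmp9. The others were -0.22 for S100a8, -0.25 for S100a9, -0.0317 for Clec4d, 0.26 for Clec4e, 0.37 for Csf3r, 0.41 for Cxcr2, 0.16 for Ly6g and 0.0402 for Trem1.

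The 9 relations of S100a8 with the other genes were computed over the 19 tumours on log2 CPM with group means removed, with p from 100000 permutations within groups and Benjamini-Hochberg adjustment over the 9. The genes share libraries, so depth and cell content bear on all of them at once. S100a9 followed S100a8 most closely (r = 0.995, rho = 0.944, permutation p adjusted 3e-05). Clec4d (r = 0.930, rho = 0.895), Retnlg (r = 0.878, rho = 0.870) and Clec4e (r = 0.841, rho = 0.858) came next, with adjusted permutation p of 3e-05, 3e-05 and 6.75e-05. Cxcr2 (r = 0.814, rho = 0.874) and Csf3r (r = 0.774, rho = 0.851) had adjusted permutation p of 0.000324 and 0.00033. Ly6g (r = 0.700, rho = 0.677), Mmp9 (r = 0.632, rho = 0.577) and Trem1 (r = 0.518, rho = 0.537) were least alike, with adjusted permutation p of 0.0055, 0.0055 and 0.0482 for r. These weaker relations were not shared by all groups. Within single groups, r of Trem1 was 0.957 in LDHA-KD anti-CTLA-4, -0.0234 in LDHA-KD IgG, 0.855 in control anti-CTLA-4 and -0.726 in control IgG tumours, each over only 4 or 5 tumours. The lowest within-group r was 0.241 for Mmp9, in control anti-CTLA-4 tumours, and 0.256 for Ly6g, in LDHA-KD IgG tumours. Without the 2 tumours farthest from the median of S100a8, r ran from 0.462 for Trem1 to 0.990 for S100a9.

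Over the 45 pairs of the 10 genes, r ran from 0.33 to 0.995 with a median of 0.772. Among 11690 genes of sufficient level ranked by r with S100a8, S100a9 was at rank 2, Clec4d 5, Retnlg 6, Clec4e 17, Cxcr2 28, Csf3r 57, Mmp9 325 and Trem1 823, and Ly6g was below the level required. The genes most like S100a8 outside the 10 were Stfa2 (r = 0.949) and Stfa2l1 (r = 0.946), stefin A cysteine protease inhibitors. They were followed by Il13ra2 (0.871), a decoy receptor for interleukin 13, Hcar2 (0.866), a receptor for hydroxycarboxylic acids, Rdh12 (0.865), Tarm1 (0.861), Cxcl3 (0.857), Pglyrp1 (0.855), a bactericidal granule protein, Hdc (0.851), the enzyme that makes histamine, and Cxcl5 (0.851). Cxcl3 and Cxcl5 are chemokine ligands of CXCR2. These values describe likeness over 19 tumours and carry no test.

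**Figure D3:**
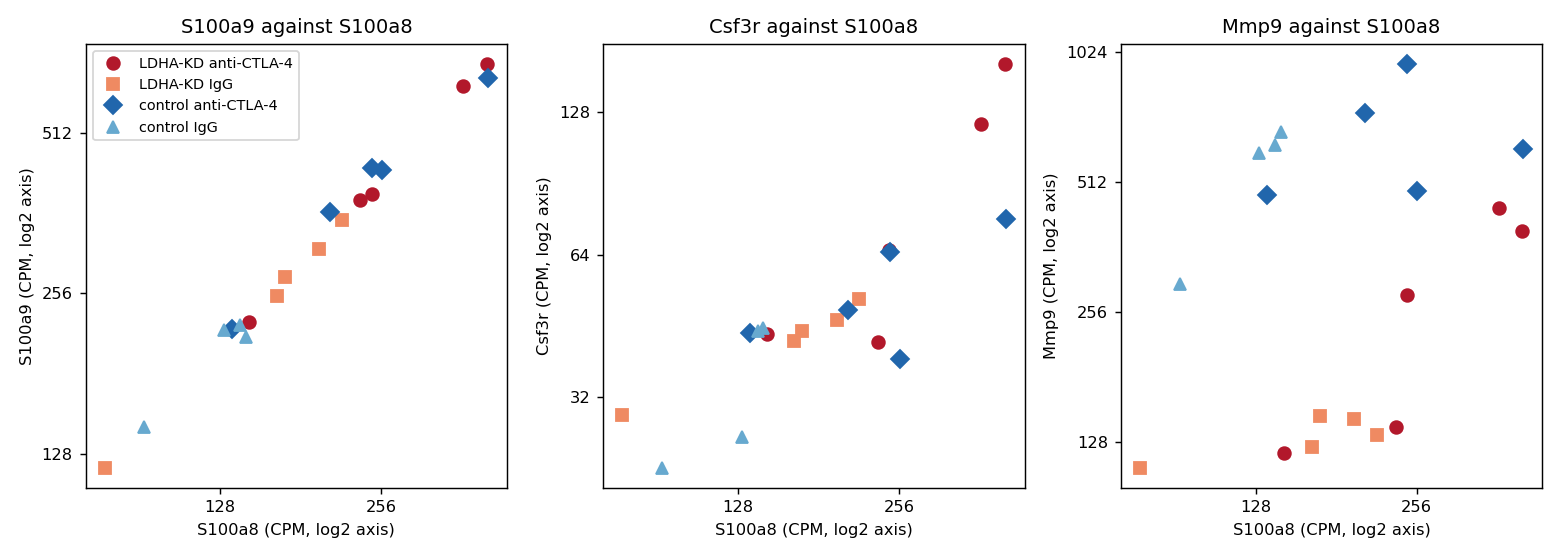
Level of S100a9, Csf3r and Mmp9 against S100a8 in each of the 19 tumours, in CPM on log2 axes, with 1 symbol per group. S100a9 runs along a single line in all groups, whereas for Mmp9 the LDHA-KD tumours lie below the control tumours at like S100a8 levels, with ratios up to 1.44 in LDHA-KD and from 1.51 in control tumours.

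Partners of these proteins were examined as a list of 15 ligands, receptors and adaptors. Under anti-CTLA-4, 5 of the 15 were higher in LDHA-KD tumours and 0 lower, beside 20.2% and 19.8% of all genes. Among them were Syk at 0.94, Card9 at 0.90, Tyrobp at 0.78 and Fcer1g at 0.60 on the log2 scale. Under IgG, 4 were higher and 1 lower, beside 16.8% and 17.5% of all genes. The 4 were Card9 (1.01, SE 0.21), Tyrobp (0.80, SE 0.15), Fcer1g (0.76, SE 0.11) and Syk (0.63, SE 0.21), the adaptors and kinase through which CLEC4D, CLEC4E and TREM1 signal, and the lower 1 was Malt1 (-0.32, SE 0.11), a protease downstream of CARD9, named after its value was seen. The list median was 0.41 under anti-CTLA-4 and 0.40 under IgG. None of the 15 passed for anti-CTLA-4 against IgG, where Fcer1g gave 0.00 in LDHA-KD and 0.17 in control tumours and Tyrobp -0.12 and -0.10.

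The ligand genes were singled out after their values were seen. Csf3, which encodes G-CSF, averaged 180 ± 73.9 CPM in LDHA-KD anti-CTLA-4 tumours, 115 ± 24.2 CPM in LDHA-KD IgG tumours, 130 ± 50.5 CPM in control anti-CTLA-4 tumours and 73.9 ± 12.9 CPM in control IgG tumours (SD, n = 5, 5, 5 and 4). Its log2 fold change for anti-CTLA-4 was 0.64 in LDHA-KD tumours (SE 0.26, adjusted p = 0.361, edgeR) and 0.81 in control tumours (SE 0.28, adjusted p = 0.601, edgeR). Cxcl3 gave 2.33 (SE 0.63, adjusted p = 0.293) and 1.82 (SE 0.68, adjusted p = 0.601). Cxcl5 gave 1.24 (SE 0.44, adjusted p = 0.316) and 0.78 (SE 0.46, adjusted p = 0.662). None of these ligand estimates passed in either tumour type.

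The list of 26 other neutrophil genes had 9 members higher in LDHA-KD tumours under anti-CTLA-4, beside 20.2% of all genes, and 7 under IgG, beside 16.8%. None of the 26 was lower, beside 19.8% and 17.5% of all genes. Slpi, a secreted protease inhibitor also made by epithelial cells, gave 1.93 under anti-CTLA-4 and 2.45 under IgG. Itgam, an integrin chain of neutrophils, monocytes and macrophages, gave 0.84 and 1.03. Hdc rose by 0.99 (SE 0.30) under anti-CTLA-4 and Fpr2, a receptor for formyl peptides, by 1.001 (SE 0.30) under IgG. Mast cells and basophils also express Hdc, and their markers (6 genes) summed to 301 to 563 CPM, 363 to 695 CPM, 95.8 to 148 CPM and 103 to 146 CPM in LDHA-KD anti-CTLA-4, LDHA-KD IgG, control anti-CTLA-4 and control IgG tumours. Their part in the Hdc level was not tested. The list median was 0.42 under anti-CTLA-4 and 0.40 under IgG. For anti-CTLA-4 against IgG, 0 of 26 passed, with a median of 0.80 in LDHA-KD and 0.62 in control tumours, beside -0.00 over all genes in each.

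Granule genes made by immature neutrophils had 10 of 12 members tested, with Elane and Fcnb below the count filter. Under anti-CTLA-4, 3 were higher in LDHA-KD tumours, which were Chil3 (1.80, SE 0.54), Gfi1 (1.04) and Cebpe (0.93), beside 20.2% of all genes, and 0 were lower, beside 19.8%. Under IgG, 4 were higher, which were Gfi1 (1.63), Prtn3 (1.26), Ctsg (1.20) and Cebpe (1.11), beside 16.8% of all genes, and 0 were lower, beside 17.5%. GFI1 and C/EBPε are transcription factors of neutrophil differentiation, while proteinase 3 and cathepsin G, encoded by Prtn3 and Ctsg, are azurophil granule proteases. The list median for LDHA-KD was 0.62 under anti-CTLA-4 and 1.07 under IgG. None passed for anti-CTLA-4 against IgG, with a median of 0.45 in LDHA-KD and 0.77 in control tumours.

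Effector genes of myeloid suppression, 15 of 16 tested with Slc27a2 below the filter, were higher in LDHA-KD tumours for 11 members under anti-CTLA-4, beside 20.2% of all genes, and for 8 under IgG, beside 16.8%. None was lower, beside 19.8% and 17.5% of all genes. Under anti-CTLA-4 Ptgs2, the prostaglandin-forming enzyme COX-2, gave 1.37 (SE 0.23), Cybb, the catalytic subunit of the phagocyte NADPH oxidase, 1.34, the lipid receptor gene Olr1 1.19 and the oxidase gene Ncf4 1.01. Under IgG Cybb gave 1.28 (SE 0.32), Ncf1 0.997 (SE 0.18), Ncf4 0.96 (SE 0.15) and Ptgs2 0.87 (SE 0.24). Macrophages also express the oxidase genes, and macrophage markers were higher for 10 of 10 genes under anti-CTLA-4, beside 20.2% of all genes, and for 7 of 10 under IgG, beside 16.8%. The part of macrophages in these list counts was not tested. None of the 15 passed for anti-CTLA-4 against IgG, where Arg1, the arginine-degrading enzyme of suppressor cells, gave 0.54 in LDHA-KD and 0.24 in control tumours.

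Granulocyte transcription factors were higher in LDHA-KD tumours for 4 of 7 genes in each treatment, beside 20.2% of all genes under anti-CTLA-4 and 16.8% under IgG, and lower for 0, beside 19.8% and 17.5%. Spi1, which encodes PU.1, gave 0.98 under anti-CTLA-4 and 0.92 under IgG, Cebpa 0.58 and 0.68, Cebpd 0.60 and 0.60, and Irf8, a factor that favours monocytes over granulocytes, 0.53 and 0.64. Of 6 inhibitors and relatives of MMP9, 3 were lower and 1 higher under anti-CTLA-4, beside 19.8% and 20.2% of all genes. Under IgG, 2 were lower and 0 higher, beside 17.5% and 16.8% of all genes. Timp1, the inhibitor that binds MMP9, fell along with it, by 1.28 under anti-CTLA-4 (SE 0.22) and by 1.53 under IgG (SE 0.23) on the log2 scale. Timp1 averaged 268 ± 92.4 CPM in LDHA-KD and 651 ± 173 CPM in control tumours under anti-CTLA-4 (SD, n = 5 each), and 172 ± 23.9 CPM in LDHA-KD and 495 ± 118 CPM in control tumours under IgG (SD, n = 5 and 4). Mmp14, a membrane protease that activates gelatinase A, fell by 0.32 and by 0.38, and Mmp2, gelatinase A itself, was higher by 0.96 under anti-CTLA-4.

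Median changes of other cell type markers are given in the same comparisons. Over 10 macrophage genes the median log2 fold change for LDHA-KD was 0.89 under anti-CTLA-4 and 0.81 under IgG, and for anti-CTLA-4 it was -0.09 in LDHA-KD and -0.03 in control tumours. Over 6 monocyte genes these medians were 0.92, 0.88, 0.01 and -0.10. Over 6 T cell genes they were 1.49, 1.98, 0.61 and 1.01, with 6 of 6 higher in LDHA-KD tumours in each treatment, beside 20.2% of all genes under anti-CTLA-4 and 16.8% under IgG. Over 5 erythroid and blood genes the medians were -0.64, -0.48, 0.65 and 0.67. Blood genes thus gave positive medians for anti-CTLA-4, as did the neutrophil and T cell genes, and the part of blood content in the levels of the 10 genes was not tested. Blood marker levels summed to 54.4 to 153 CPM in LDHA-KD anti-CTLA-4, 39.9 to 85.7 CPM in LDHA-KD IgG, 77.5 to 213 CPM in control anti-CTLA-4 and 45.6 to 131 CPM in control IgG tumours, and 0 of the 5 genes passed for anti-CTLA-4 against IgG. The difference between these lists and the 10 genes was not tested, and list medians without the 4 libraries that lay apart are not given here.

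**Figure D4:**
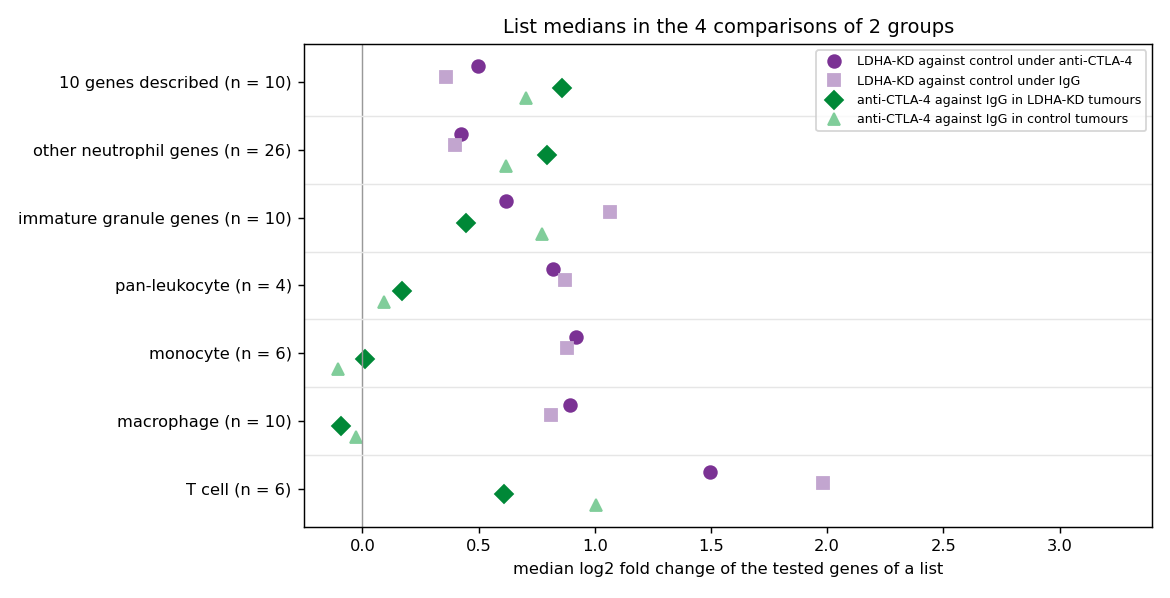
Median log2 fold change of each gene list (rows, with the number of tested genes) in 4 comparisons (symbols). With all 19 tumours, the 10 genes and the other neutrophil genes lie farther right for anti-CTLA-4 (0.86 and 0.80 in LDHA-KD tumours, 0.70 and 0.62 in control tumours) than for LDHA-KD (0.50 and 0.42 under anti-CTLA-4, 0.36 and 0.40 under IgG). The granule genes of immature neutrophils do not share this order. They lie at 0.45 in LDHA-KD and 0.77 in control tumours for anti-CTLA-4. For LDHA-KD they lie at 0.62 under anti-CTLA-4 and 1.07 under IgG. The macrophage genes lie near 0 for anti-CTLA-4 and at 0.89 and 0.81 for LDHA-KD. These medians include the 4 libraries that lay apart, all under anti-CTLA-4. Without them the single estimates of the 10 genes for anti-CTLA-4 ran from -0.17 to 0.54 in LDHA-KD and from 0.0581 to 0.77 in control tumours. With them they ran from 0.28 to 1.07 and from 0.24 to 1.08. List medians without these libraries are not given here.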

How the data were processed

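Whole tumours were profiled by poly(A) RNA sequencing with a stranded TruSeq kit, per the labels. The deposited values are raw counts per gene that the authors made with HTSeq 0.5.3 on build mm10, and Picard 1.124 is also named, per the submitters' processing notes. The aligner, annotation release and strand setting are not given in the sources used here. Summary lines that name no gene held 8.42% to 13.8% of reads as outside genes and were left out.

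The tests were run with edgeR 4.0.16 under R 4.3.3: filterByExpr, TMM scaling, 1 quasi-likelihood model over all 19 samples with 1 coefficient per group, F tests, and Benjamini-Hochberg adjustment over 16763 genes with a threshold of 0.05. CPM used the scaled totals, and means are given with SD. Likeness used log2 CPM with a prior count of 2. The 10 genes, the 21 gene lists with 166 symbols and the motifs were chosen with earlier results of these data known. Values of all 10 genes are given in every comparison but the averaged one, which is given by its range. From each list at most 4 genes are named, those with the largest change among those past the threshold or, with none, the 2 of highest level. Names outside this rule are marked. A gene that the rule would name is not reported here. The averaged contrast was added after the data were seen.

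Alternatives were DESeq2 1.42.0, limma voom (limma 3.58.1), RLE scaling, no filter, a replicate block, only the groups compared, another prior count of 0.5, and leaving out each library or the 4 libraries that lay apart. Among 171 pairs of libraries the lowest chi-square per gene was 5.40, so none was a copy. Comparisons share samples: each group enters 2 of the 4 pairwise comparisons. Counting floors cover counting error only. The test code was checked on simulated data. IDs matched GENCODE M21 for 46488 genes.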

Additional observations from a re-analysis of the deposited data

Results flagged for a closer look

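Of 40 groups of samples, 1 for each gene and group, 2 held a tumour whose level lay farther from the others of its group than Dixon's 95% limit allows, and chance gives about 1 in 20 such groups. Control IgG replicate 5 had the lowest S100a9 level of its group, 143.833 CPM, against 212 to 223 CPM in the other control IgG tumours. Control anti-CTLA-4 replicate 5 had the highest Ly6g level of its group, 1.2368 CPM, against 0.421 to 0.571 CPM in the other control anti-CTLA-4 tumours.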

How the results depend on the processing

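Mmp9 kept its direction and its call in both LDHA-KD comparisons under every alternative run. The counts of called genes that moved were these. For LDHA-KD under IgG, the 3 calls became 6 with a replicate block (S100a8, S100a9 and Clec4d added, S100a8 at 0.51 with an adjusted p of 0.0358), became 4 with Clec4d added in the fit of the IgG groups alone or without the 4 libraries that lay apart, and ran from 2 to 3 when 1 library was left out. The 4 libraries are not in the IgG groups but share the spread estimate of the single fit. Without them the Clec4d estimate under IgG stayed at 0.62, while its SE went from 0.28 to 0.18. For LDHA-KD under anti-CTLA-4, the 2 calls became 3 with the block (Clec4d added) and 1 without the 4 libraries that lay apart and ran from 2 to 5 with 1 library left out. They were 5 without LDHA-KD anti-CTLA-4 replicate 1 or 2 (Clec4d, Clec4e and Csf3r added) and 4 without control anti-CTLA-4 replicate 5. For the averaged anti-CTLA-4 effect, the 0 calls became 5 with DESeq2 and 7 with the block, and ran from 0 to 7 with 1 library left out, with 7 when LDHA-KD anti-CTLA-4 replicate 2 was left out, 4 for control anti-CTLA-4 replicate 2 and 1 for LDHA-KD anti-CTLA-4 replicate 1. Genes called in all for the averaged effect numbered 539 of 16423 with DESeq2 and 800 of 16763 with the block, against 0. For LDHA-KD under IgG they numbered 5941 of 16763 with the block, against 5752 in the main fit. They numbered 5939 of 15950 in the IgG groups alone and 6100 of 16739 without the 4 libraries. For LDHA-KD under anti-CTLA-4 they numbered 7144 of 16763 with the block, against 6711, and 4308 of 16739 without the 4 libraries. Shares of all genes with 1 library left out are not given here. The block used the replicate numbers, and the sources used here do not say what same-numbered samples have in common. Deviations from group means correlated with r above 0.1 in 15 of 27 same-numbered pairs. The median r was 0.116 over these pairs and -0.0422 over pairs of differing number. Of 19 samples, 10 correlated best with their own number. Whether same-numbered samples share a source of variation was not tested. None of the estimates that changed sign had passed the threshold. Ly6g gave -0.15 with limma voom and -0.0511 with the block for LDHA-KD under anti-CTLA-4, and 0.0245 with the block under IgG. With the block, the difference between treatment effects was -0.0757 for Ly6g and -0.0267 for Trem1. Without the 4 libraries, S100a9 gave -0.0219 for LDHA-KD under anti-CTLA-4 and Retnlg -0.17 for anti-CTLA-4 in LDHA-KD tumours, and the difference between treatment effects was -0.15 for Clec4e, -0.10 for Csf3r, -0.0568 for Cxcr2 and -0.15 for Trem1. With 1 library left out, LDHA-KD under anti-CTLA-4 ranged from -0.0135 to 0.413 for S100a8, -0.0488 to 0.357 for S100a9 and -0.24 to 0.38 for Ly6g. LDHA-KD under IgG ranged from -0.0612 to 0.259 for Cxcr2 and -0.327 to 0.0334 for Ly6g. The difference between treatment effects ranged from -0.401 to 0.0289 for S100a8, -0.27 to 0.19 for Clec4d, -0.0354 to 0.481 for Clec4e, -0.10 to 0.53 for Ly6g and -0.0738 to 0.128 for Trem1. The cause of these changes was not tested. Low counts limit Ly6g, with 4 counts in its lowest library.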
